A study of Rattus norvegicus with 8 samples.

Results

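Complex I, the NADH:ubiquinone oxidoreductase of the inner mitochondrial membrane, was followed through the 47 genes whose name on the array starts with Nduf, out of 26292 genes and unnamed probes on the array. They were chosen by that name alone, from probes that are not array controls, and 61 probes carried them. The samples were livers of male Fisher 344 rats aged 18 weeks, hybridised singly to 8 Agilent 1-colour (Cy3) expression arrays. The control group held 4 rats and the furan group held 4 rats. Furan is a small volatile ring compound found in heated foods and toxic to the liver, and the treated rats received 8 mg of it per kg of body weight by gavage on 5 days of each week for 90 days. All livers were taken 24 h after the last treatment and snap-frozen, and what the control rats were given in place of furan is not given in the sources used here. The labels name no genetic change in either group, and strain, sex and age were shared. Each sample was whole liver, and the replicates are separate animals, since the study's design names 4 rats per group.

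Complex I takes electrons from NADH, passes them through a flavin and a chain of iron-sulphur clusters in its matrix arm to ubiquinone, and pumps protons through its membrane arm. Its catalytic core is encoded partly in the nucleus (the Ndufv and Ndufs core genes) and partly in mitochondrial DNA (the mt-Nd genes), around which many nuclear accessory subunits (mostly Ndufa, Ndufb and Ndufc) are packed. A separate set of proteins, the Ndufaf assembly factors, helps to build the complex and is absent from the finished enzyme. Hepatocytes hold many mitochondria, and their oxidative metabolism depends on this complex.

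Levels are log2 processed fluorescence signals minus the log2 of the 75th percentile of the non-control spots of the same array, so 0 is that percentile. Testing was limited to probes that the scan had marked well above background in every animal of the control group, the furan group or both, and 17684 features (genes, each by its brightest tested probe, and unnamed probes) were tested. A gene is called higher or lower where limma's adjusted p for furan minus control was below 0.05, adjusted by Benjamini-Hochberg over all features, two-sided. The 75th percentile itself lay between 827 and 1057 intensity units in controls and between 1256 and 1596 after furan. On each array, 70.9 to 78.5% of non-control spots were well above background. Among whole-tissue markers, 9 of 14 hepatocyte genes were lower after furan (summed level 10.81 to 11.03 in controls and 10.17 to 10.58 after furan), 3 of 9 tested biliary genes were higher (-0.40 to 2.65 and 1.07 to 3.64), and 9 of 10 proliferation genes were higher (0.09 to 0.69 and 1.57 to 2.46). Of 4 tested erythroid genes 1 was lower, with a median change of -0.80 (summed level 6.88 to 8.03 in controls and 5.96 to 6.95 after furan). Over all features tested, 17.3% were called higher and 16.9% lower. None of the 32 tested macrophage, lymphocyte, endothelial and stellate markers was called by limma, and 1 of them, an endothelial one, had an unadjusted p below 0.05. In bulk liver, fewer cells of a type and less RNA per cell cannot be told apart, and the part of these shifts in the results below was not tested.

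Of the 47 Nduf genes, 46 passed the filter and were tested. The 5 called higher were all assembly factors and the 1 called lower was Ndufa6, an accessory subunit, so 13.0% of the tested members were called. Over all features, 34.2% were called by the same rule, 17.3% higher and 16.9% lower. The median log2 change of the 46 genes was 0.03 with an SD over genes of 0.33, beside a median of -0.03 and an SD of 0.71 over all features. For 42 of the 46, the 95% interval of the change lay within 2-fold in both directions, as it did for 11631 of all 17684 features. Groups did not overlap, with all 4 furan arrays above all 4 controls, for 6 of the 46 genes, and with all 4 below for 1, beside 18.8% and 18.0% of all features.

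**Figure D1:**
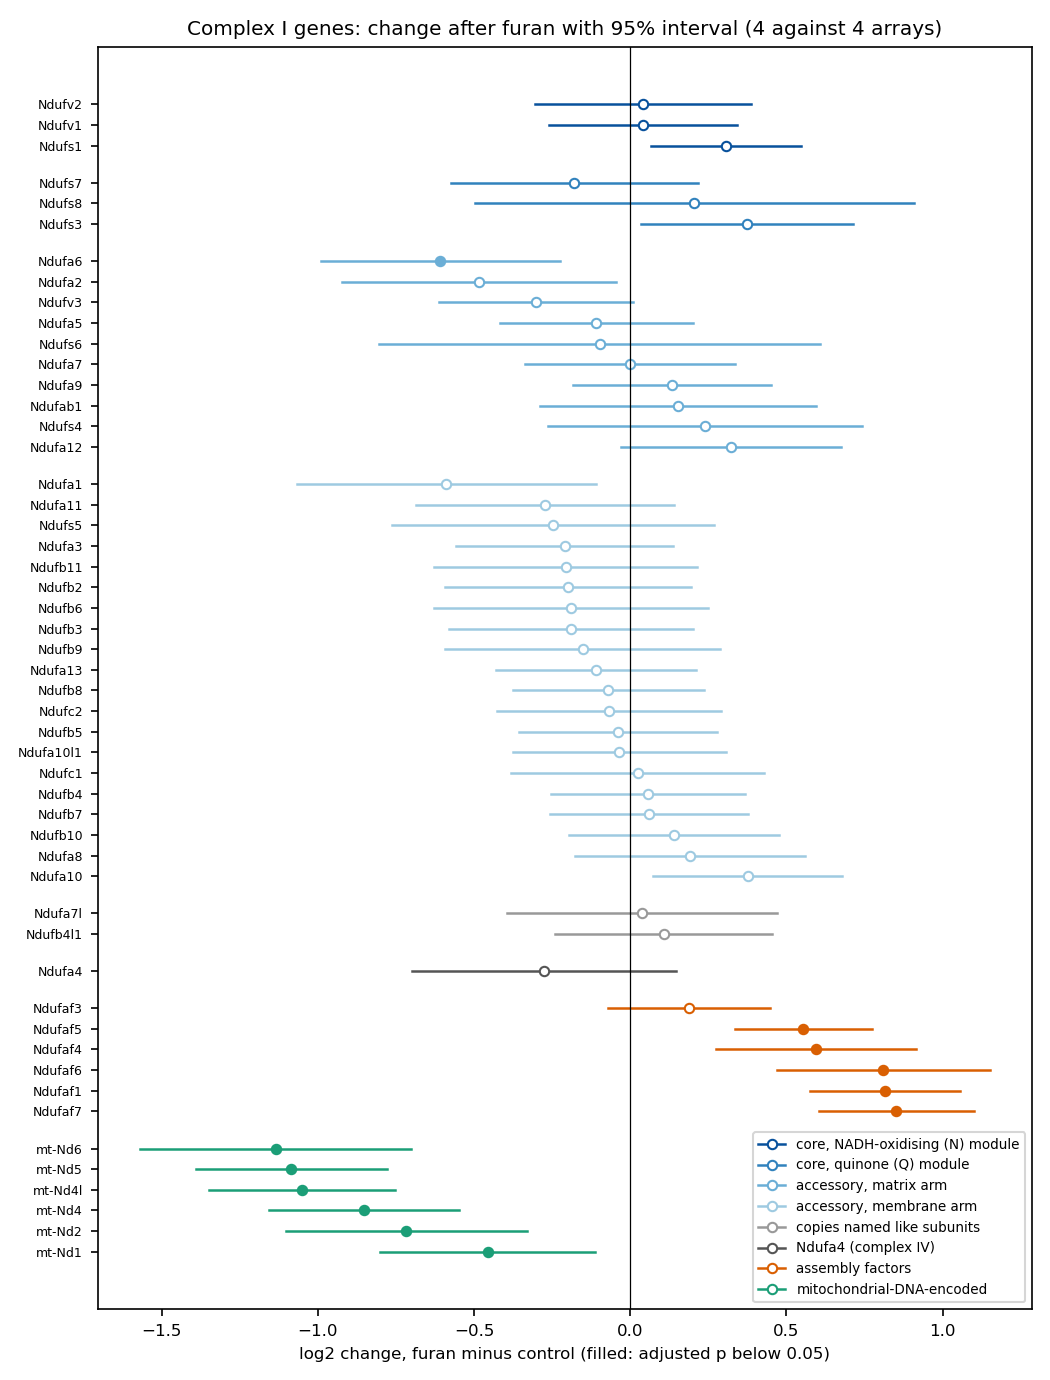
Log2 change, furan minus control, of the tested Nduf genes reported here and of the mitochondrial-DNA-encoded subunits, grouped by role, with limma's 95% interval as a bar and filled points where the adjusted p was below 0.05. The structural subunits lie between -0.61 and 0.38, 5 of 6 assembly factors lie at 0.55 or above, and the 6 mitochondrial-DNA-encoded genes lie at -0.46 or below.

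The 37 nuclear structural subunits are the 7 nuclear core subunits and 30 accessory subunits, 1 of which, Ndufa10l1, is named as a copy of Ndufa10 and was counted with the membrane arm (change -0.03, not called). None was called higher and 1 was called lower, their median change was -0.04, and their changes spread over genes with an SD of 0.24, from -0.61 to 0.38. In 36 of 37 the 95% interval lay within 2-fold. Among the 1231 features with a mean level between 2.80 and 4.41, the middle of the subunits' own range, 24.4% were called higher and 18.4% lower, and the SD of the changes was 0.56. Of these 1231 features, 964 had a 95% interval within 2-fold. At an unadjusted p below 0.05, 3 subunits were higher and 3 lower in limma. At that threshold 3958 of all 17684 features were higher and 4102 lower, and 381 and 304 of the 1231 features of like level. The counts of calls turned on single animals: without furan 1, 3 were higher, without furan 4, 4 were lower, and without control 1, control 3 or furan 2, 0 were lower. The filter kept all 37 structural subunits that the array names. Ndufb1, a membrane-arm subunit, was not found on the array by name.

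The 3 core subunits of the NADH-oxidising (N) module had changes from 0.04 to 0.31. Ndufv1, which binds NADH and the flavin, had levels of 4.61, 4.46, 4.58 and 4.53 in controls 1 to 4, and of 4.34, 4.51, 4.59 and 4.90 in furan animals 1 to 4. Those groups overlapped, and limma gave a change of 0.04 (95% interval -0.26 to 0.34, adjusted p 0.839). Ndufv2, an iron-sulphur protein beside Ndufv1, had a change of 0.04 (-0.31 to 0.39). Ndufs1, which carries several of the iron-sulphur clusters, had levels of 2.31, 2.24, 2.29 and 2.23 in controls 1 to 4, and of 2.44, 2.44, 2.69 and 2.72 in furan animals 1 to 4. All 4 furan arrays lay above all 4 controls, and its change of 0.31 (0.07 to 0.55) missed the threshold with an adjusted p of 0.0527 (limma). Without furan 1 it was 0.35 with an adjusted p of 0.0416.

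The 4 core subunits of the quinone (Q) module, where electrons reach ubiquinone, had changes from -0.18 to 0.37. None was called by limma, beside 34.2% of all features, and 1, Ndufs3, had an unadjusted p below 0.05. Ndufs7 and Ndufs8, which hold the last clusters of the chain, had changes of -0.18 (-0.57 to 0.22) and 0.21 (-0.50 to 0.91). For Ndufs8 the furan SD was 0.63, against 0.30 in controls. Ndufs3, a core subunit of the matrix arm, had levels of 2.70, 2.63, 2.64 and 2.77 in controls 1 to 4, and of 2.70, 3.05, 3.09 and 3.40 in furan animals 1 to 4. Only furan 1 lay within the control range, and the change of 0.37 (0.03 to 0.71) had an adjusted p of 0.0839 (limma). Without furan 1 it was 0.49 with an adjusted p of 0.019.

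Of the 10 accessory subunits of the matrix arm, 1 was called, beside 34.2% of all features. Ndufa6, a small subunit of the LYR-motif family that anchors the acyl carrier protein to the complex, had levels of 5.43, 5.27, 5.48 and 5.32 in controls 1 to 4, and of 4.44, 4.56, 4.89 and 5.17 in furan animals 1 to 4. All 4 furan arrays lay below all 4 controls, and furan 4 came closest to them. The group levels were 5.38 ± 0.10 in controls and 4.77 ± 0.33 after furan (SD, n = 4 each), and Ndufa6 fell by 0.61 on the log2 scale (SE 0.17, limma adjusted p 0.0242), a furan to control ratio of 0.656. This call rested on single animals: the adjusted p was 0.0548 without control 1, 0.0642 without control 3 and 0.0696 without furan 2. It was 0.0538 with no filter on dim probes, 0.0511 with replicate number as a block and 0.0656 without both control 2 and furan 1. Its probe lies at chr7:120726147-120726206 (rn4, as in the array annotation).

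Ndufab1, the mitochondrial acyl carrier protein that Ndufa6 binds, had a change of 0.15 (-0.29 to 0.60) by its brightest probe. Ndufa2, a subunit with a thioredoxin-like fold, had levels of 1.59, 1.30, 1.46 and 1.51 in controls 1 to 4, and of 0.47, 0.99, 1.05 and 1.42 in furan animals 1 to 4. Only furan 4 reached into the control range, and its change was -0.48 (-0.92 to -0.05, limma adjusted p 0.0824). Without furan 4 that change was -0.63 with an adjusted p of 0.0265. Ndufa7 had the lowest mean signal of the tested members, and its change was 0.00 (-0.34 to 0.34). The other matrix-arm accessory genes were Ndufv3 at -0.30 (adjusted p 0.0205 in limma without furan 4), Ndufa5 at -0.11, Ndufs6 at -0.10, Ndufa9, a nucleotide-binding subunit, at 0.13, Ndufs4, a late-joining subunit whose loss causes Leigh syndrome, at 0.24 and Ndufa12 at 0.32, with every interval including 0. The array annotation places its Ndufs6 probes on chromosome 2, where RefSeq (GRCr8) now lists a pseudogene, Ndufs6-ps1, that carried the name Ndufs6 before, and it lists Ndufs6 itself on chromosome 1, so this value cannot be assigned to Ndufs6 with certainty.

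None of the 20 accessory subunits of the membrane arm was called by limma, beside 34.2% of all features. At an unadjusted p below 0.05, 1 lay in each direction. Their median change was -0.09, with a range from -0.59 to 0.38. Ndufa1, a small membrane-spanning subunit needed for assembly, had levels of 5.01, 4.66, 4.90 and 4.96 in controls 1 to 4, and of 3.69, 4.32, 4.48 and 4.68 in furan animals 1 to 4. Furan 4 alone reached the control range, at the level of control 2, and the change of -0.59 (-1.07 to -0.11) had an adjusted p of 0.0595 (limma). Ndufa10, related to nucleoside kinases, had levels of 3.09, 2.93, 3.02 and 3.18 in controls 1 to 4, and of 3.15, 3.47, 3.41 and 3.69 in furan animals 1 to 4. Only furan 1 overlapped the controls, and the change of 0.38 (0.07 to 0.68) had an adjusted p of 0.0573 (limma). Without furan 4, Ndufa1 was at -0.72 with an adjusted p of 0.0345, and without furan 1, Ndufa10 was at 0.47 with an adjusted p of 0.0202. Ndufb8, the tested member with the highest mean signal, had a change of -0.07 (-0.38 to 0.24). The 17 remaining membrane-arm genes lay between -0.27 (Ndufa11) and 0.19 (Ndufa8), and every one of their intervals included 0. Ndufa13, known also as the cell-death gene Grim19, had a change of -0.11, and a separate probe named LOC100911483 on the array, whose transcript RefSeq now lists as Ndufa13, gave -0.08.

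A further 3 names starting with Nduf were counted apart from the structural subunits. None was called by limma, beside 34.2% of all features, or had an unadjusted p below 0.05 (a count of 0). Ndufa4, now counted as a subunit of complex IV (cytochrome c oxidase), had a change of -0.28 (-0.70 to 0.15). Ndufa7l and Ndufb4l1, like Ndufa10l1 copies named after subunits, had changes of 0.04 and 0.11. Ndufa4l2 was not found on the array by name.

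Although the group means of the structural subunits differed little, the 4 furan animals differed from each other. The median level of the 37 subunits relative to each gene's control mean was 0.08, -0.10, 0.00 and 0.07 in controls 1 to 4, against -0.38, -0.06, -0.04 and 0.32 in furan animals 1 to 4. Within the furan group, furan 1 was the lowest array for 36 of 37 subunits and furan 4 the highest for 36 of 37, and both held for 35, which is 94.6%. The same order held for 19.4% of all features and for 45.9% of the features of like level. It was common in the related lists too: it held for 9 of 11 complex III genes (81.8%), 14 of 18 complex V genes (77.8%), 12 of 18 complex IV genes (66.7%), 4 of 6 complex II genes (66.7%) and 71 of all 106 other pathway genes tested (67.0%), and for Ndufa7l and Ndufb4l1. The SD over furan animals was larger than that over controls in 37 of 37 subunits, with medians of 0.30 and 0.11, beside 63.4% of all features and 83.4% of those of like level. It was also larger in all 6 complex II and all 18 complex V genes, and in 98 of the 106 other pathway genes (92.5%). The order and the larger SD were thus not limited to complex I. This pattern was picked after the values were seen and is given as a description.

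The order depended in part on the scaling between arrays. After quantile normalization it held for 25 of 37 subunits (67.6%), for 17.6% of all features and for 12.8% of those of like level, with furan medians of -0.26, -0.06, 0.00 and 0.08. With each array's median in place of its 75th percentile it held for 36 of 37 (97.3%), and for 63.8% of the features of like level. Furan 1 and furan 2 shared a slide with controls 1 and 2, and furan 3 and furan 4 with controls 3 and 4. Within the first slide the median change of the structural subunits was -0.20 and within the second 0.13, so the sign of this median differed between slides. The same medians over all 46 tested Nduf genes were -0.15 and 0.17.

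**Figure D2:**
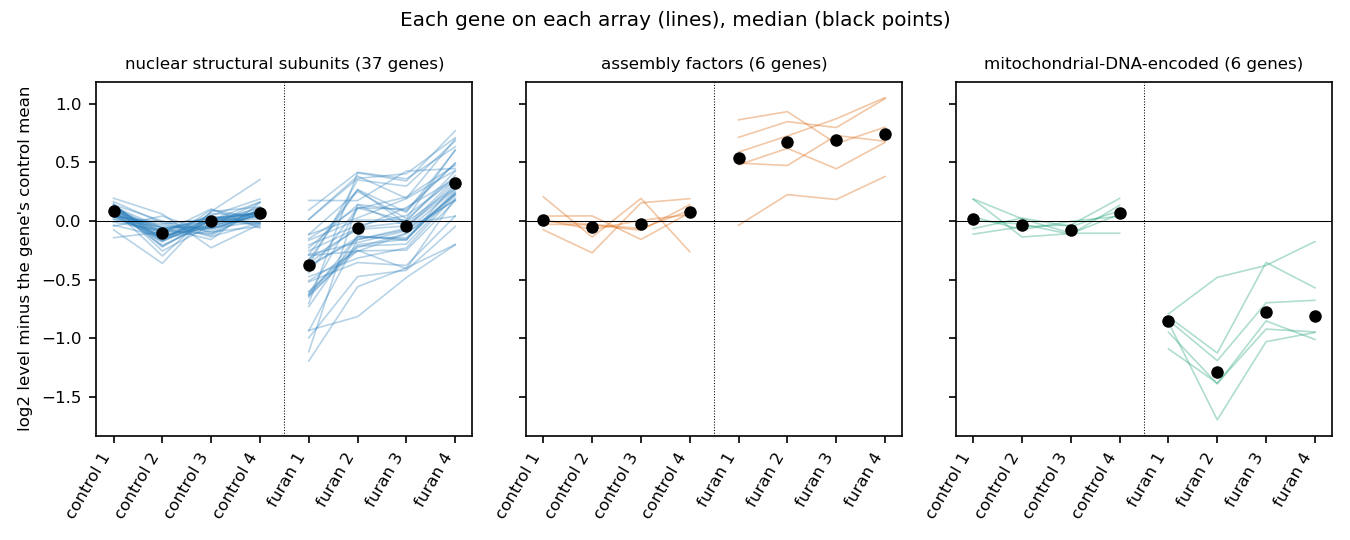
Level of each gene on each array relative to that gene's control mean, on the log2 scale, with 1 line per gene and black points for the median of each array. For the 37 structural subunits the furan medians run from -0.38 (furan 1) to 0.32 (furan 4) around the controls, whereas the 6 assembly factors lie at 0.54 to 0.74 and the 6 mitochondrial-DNA-encoded genes at -1.29 to -0.78 on every furan array.

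Furan 1 was also at one end of the furan group in other measures. The median variation between replicate spots of a probe was 20.9% on furan 1 and 12.01 to 14.6% on the other 7 arrays. The median biliary marker level relative to the control mean was 3.47, 2.03, 0.66 and 0.53 on furan 1 to furan 4, with controls at -0.998, 2.17, -0.40 and -0.23. The median hepatocyte marker level was -0.93, -0.82, -0.42 and -0.53 in furan animals 1 to 4 and between -0.07 and 0.06 on the controls, so furan 1 and furan 2 lay close together there. The median of the 9 tested stellate and matrix markers was 1.36, 0.42, -0.21 and -0.63 in furan animals 1 to 4, the reverse of the subunits' order, and between -0.73 and 1.01 on the controls. Furan 1 was the highest furan array for 9 of those 9 genes, beside 33.8% of all features. Furan 1 was therefore the array with the highest biliary and stellate, the lowest hepatocyte and the lowest structural subunit median. The part of any of these in the subunits' spread was not tested. Among the controls, control 2 had the highest biliary (2.17) and stellate (1.01) and the lowest subunit median (-0.10).

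**Figure D3:**
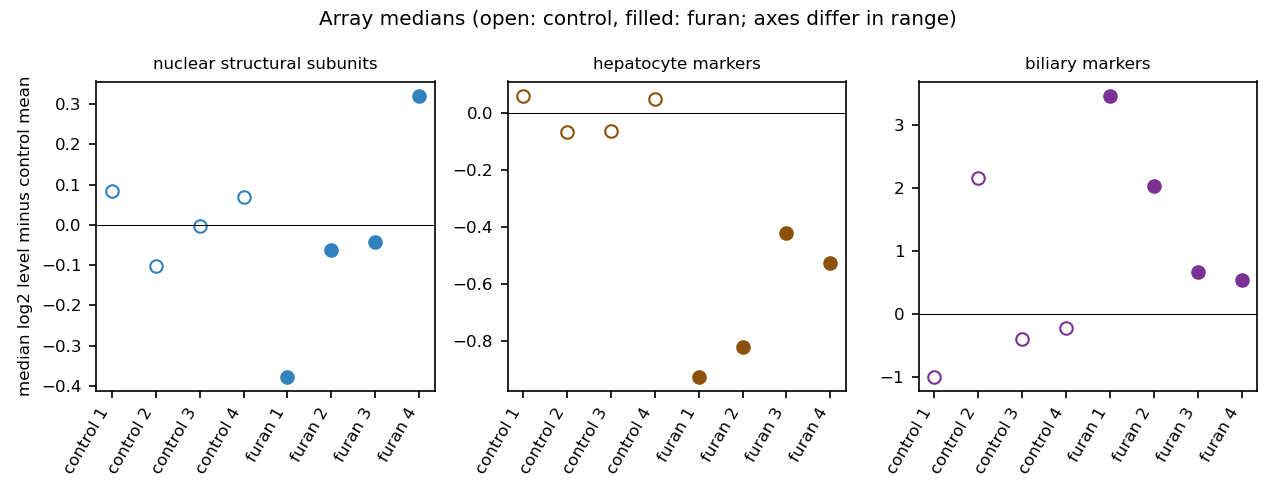
Array medians, relative to the control mean on the log2 scale, of the 37 structural subunits, 14 hepatocyte markers and 9 biliary markers, with open points for control and filled points for furan arrays. Furan 1 has the lowest subunit (-0.38) and hepatocyte (-0.93) and the highest biliary median (3.47), and control 2 lies at 2.17 in the biliary panel.

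The Ndufaf assembly factors were mostly higher after furan; their difference from the structural subunits was not tested. Of the 6 tested, 5 were called higher and the sixth had a positive change, with a median of 0.70. Among the 4455 features within their range of mean level, -1.64 to 1.03, 18.0% were called higher. The array medians relative to the control mean were 0.54, 0.67, 0.70 and 0.74 in furan animals 1 to 4 and -0.05 to 0.08 on the controls, so the groups did not overlap. Within slides, the median change was 0.70 and 0.76. In each of the 19 other processing settings and left-out arrays that gave a test, the 5 were called, with the highest adjusted p at 0.0463, for Ndufaf4 in limma.

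Ndufaf1, part of the mitochondrial complex I assembly (MCIA) complex that builds the membrane arm, had levels of -2.00, -2.00, -2.20 and -1.97 in controls 1 to 4, and of -1.18, -1.11, -1.38 and -1.24 in furan animals 1 to 4. Every furan array lay above every control. The levels were -2.04 ± 0.11 in controls and -1.23 ± 0.12 after furan (SD, n = 4 each), and Ndufaf1 rose by 0.82 on the log2 scale (SE 0.11, limma adjusted p 0.00143), which is 1.76-fold. Its probe lies at chr3:106171591-106171650 in rn4.

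Ndufaf7, a methyltransferase that acts early in assembly, had levels of -2.01, -2.02, -2.07 and -1.85 in controls 1 to 4, and of -1.27, -1.14, -1.19 and -0.94 in furan animals 1 to 4. The groups did not overlap. It rose by 0.85 (SE 0.11, limma adjusted p 0.00136), 1.8-fold, and its second probe gave 0.75. Ndufaf5, which hydroxylates an arginine of the core subunit Ndufs7, had levels of 0.02, -0.06, 0.02 and 0.07 in controls 1 to 4, and of 0.49, 0.63, 0.46 and 0.68 in furan animals 1 to 4. Again the groups were separate, and Ndufaf5 rose by 0.55 (SE 0.10, adjusted p 0.004 in limma), 1.47-fold. Ndufs7 itself had a change of -0.18 and was not called.

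Ndufaf6, needed for early assembly around the mitochondrial-DNA-encoded subunit Nd1, had levels of -0.87, -1.06, -0.64 and -0.60 in controls 1 to 4, and of -0.20, -0.07, 0.08 and 0.26 in furan animals 1 to 4. The furan arrays all exceeded the controls, and the rise was 0.81 (SE 0.15, limma adjusted p 0.0049), 1.75-fold. Ndufaf4, which binds early matrix-arm intermediates together with Ndufaf3, had levels of 0.09, -0.25, 0.08 and -0.38 in controls 1 to 4, and of 0.38, 0.36, 0.62 and 0.57 in furan animals 1 to 4. The controls were more spread than the furan arrays but stayed below them. Ndufaf4 rose by 0.59 (SE 0.14, limma adjusted p 0.0131), 1.51-fold, and its 4 probes gave changes from 0.56 to 0.65. RefSeq lists 5 pseudogenes named after Ndufaf4 and 1 after Ndufaf7, and signal from such copies could not be separated from that of the gene.

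Ndufaf3 had levels of 0.94, 0.91, 0.87 and 1.03 in controls 1 to 4, and of 0.90, 1.16, 1.12 and 1.32 in furan animals 1 to 4. Furan 1 lay within the control range and the other 3 furan arrays above it, and the change was 0.19 (-0.07 to 0.45, limma adjusted p 0.227). Ndufaf2, a late-acting assembly chaperone, was not tested, because its probe was bright enough on only 1 control and 1 furan array. Ndufaf8, a partner of Ndufaf5, falls outside the naming rule because the array calls its probe LOC690871, and that probe gave -0.04 (-0.41 to 0.34). Among 10 other tested genes that help to assemble complex I under other names (such as Acad9, Ecsit and Timmdc1), none was called by limma. Over all features 34.2% were called. At an unadjusted p below 0.05, 2 of the 10 were higher and none lower, beside 3958 higher and 4102 lower of all 17684 features. The median change of the 10 was 0.18, with a range from -0.27 to 0.41.

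**Figure D4:**
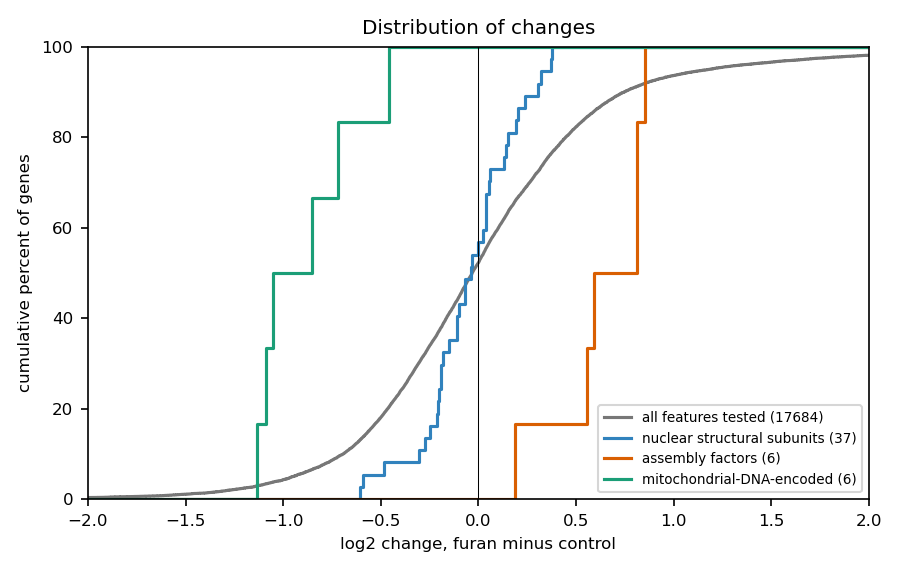
Cumulative percent of genes against log2 change, furan minus control, for all 17684 features tested (2.0 or further from 0 is cut at the frame), the 37 nuclear structural subunits, the 6 assembly factors and the 6 mitochondrial-DNA-encoded subunits. The structural subunits rise steeply around their median of -0.04, the assembly factors lie to the right with a median of 0.70, and the mitochondrial-DNA-encoded genes lie to the left with a median of -0.95.

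The 250 bases upstream of the annotated starts of the assembly factors that rose are shown because these genes changed in the same direction; capitals mark exact matches, on either strand, to the cores of motifs known from genes for mitochondrial proteins. The motifs searched were the NRF-1 core CGCATGCG, the ETS or GABP core CCGGAAG, the YY1 core AAGATGGC and the ERR site TCAAGGTCA. Sequences are from RefSeq, build GRCr8, and are written 5′ to 3′ on the strand of the gene. The promoter of Ndufaf6 is not shown.
Ndufaf1, chr3:127104021-127104270, minus strand: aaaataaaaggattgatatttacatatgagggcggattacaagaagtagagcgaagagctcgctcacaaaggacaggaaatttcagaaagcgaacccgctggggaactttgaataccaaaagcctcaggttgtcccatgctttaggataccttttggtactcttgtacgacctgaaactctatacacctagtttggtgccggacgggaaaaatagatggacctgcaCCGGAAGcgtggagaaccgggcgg
Ndufaf4, chr5:43401545-43401794, plus strand: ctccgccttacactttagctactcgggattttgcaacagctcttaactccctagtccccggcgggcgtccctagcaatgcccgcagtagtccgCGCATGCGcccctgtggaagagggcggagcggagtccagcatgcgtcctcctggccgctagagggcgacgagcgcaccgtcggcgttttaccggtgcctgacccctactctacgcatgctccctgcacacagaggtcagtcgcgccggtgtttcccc
Ndufaf5, chr3:147961362-147961611, plus strand: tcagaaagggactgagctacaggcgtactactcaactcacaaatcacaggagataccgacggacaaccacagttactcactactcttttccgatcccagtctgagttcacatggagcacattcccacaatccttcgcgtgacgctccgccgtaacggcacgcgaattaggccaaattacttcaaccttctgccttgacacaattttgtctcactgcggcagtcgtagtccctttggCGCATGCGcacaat
Ndufaf7, chr6:21871966-21872215, minus strand: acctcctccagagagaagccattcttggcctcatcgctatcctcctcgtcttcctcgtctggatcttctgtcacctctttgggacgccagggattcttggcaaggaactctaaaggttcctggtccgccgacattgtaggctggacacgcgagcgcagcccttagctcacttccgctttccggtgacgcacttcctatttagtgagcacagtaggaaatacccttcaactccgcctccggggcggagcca
The NRF-1 core is in Ndufaf4, with its first base at -157 from the start, and in Ndufaf5, at -14. It is in 422 of 21851 protein-coding promoters (1.93%), and in 1 of 33 promoters matched for the structural subunits, that of Ndufa11. The ETS or GABP core is in Ndufaf1, at -24, in 7 of the 33 structural subunit promoters (21.2%) and in 9.01% of all. Neither of the other motifs was found in these windows of the assembly factors or structural subunits, and no searched motif was found in Ndufaf7. These are matches of letters and not measured binding.

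The mitochondrial-DNA-encoded subunits do not carry Nduf names and so lie outside the 47 genes, and they are given here as the remaining part of the same enzyme. The array held probes for 6 of them, identified by their descriptions. All 6 were called lower, beside 16.9% of all features, with groups that did not overlap, a median change of -0.95 and a range from -1.14 to -0.46. Of the 6923 features within their range of mean level, -0.65 to 6.68, 19.0% were called lower. The count was 5 after quantile normalization, with array-median scaling, with no filter on dim probes and without any single array other than furan 4, each time through the loss of Nd1, and 4 without both control 2 and furan 1. Within slides, the median change was -1.07 and -0.80.

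The probes that measured these genes are shown because each of them was lower on every furan array. They are the array's own 60-base probes, with positions on the mitochondrial chromosome of rn4, written 5′ to 3′ in lower case with no part marked; the Nd6 probe is from the opposite strand to the other 5.
mt-Nd1, chrM:3626-3685, plus strand: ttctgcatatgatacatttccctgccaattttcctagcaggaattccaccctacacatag
mt-Nd2, chrM:4448-4507, plus strand: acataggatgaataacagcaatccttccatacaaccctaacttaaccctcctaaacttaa
mt-Nd4, chrM:11439-11498, plus strand: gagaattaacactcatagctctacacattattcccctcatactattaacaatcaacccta
mt-Nd4l, chrM:10081-10140, plus strand: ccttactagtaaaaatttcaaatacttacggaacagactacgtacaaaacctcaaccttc
mt-Nd5, chrM:12852-12911, plus strand: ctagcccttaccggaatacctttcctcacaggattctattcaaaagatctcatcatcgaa
mt-Nd6, chrM:13531-13590, minus strand: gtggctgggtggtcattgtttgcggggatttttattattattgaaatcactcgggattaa
Whether nuclear copies of mitochondrial DNA match these probes was not checked.

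Nd6, the membrane-arm subunit encoded on the other strand, had levels of 0.10, -0.06, -0.19 and -0.19 in controls 1 to 4, and of -0.95, -1.78, -1.11 and -1.04 in furan animals 1 to 4. Furan 2 was the lowest array, and no furan array reached the controls. It fell by 1.14 (SE 0.19, limma adjusted p 0.00347), a furan to control ratio of 0.455. Nd5, a proton-pumping subunit at the far end of the membrane arm, had levels of 2.61, 2.68, 2.69 and 2.92 in controls 1 to 4, and of 1.64, 1.34, 1.80 and 1.78 in furan animals 1 to 4. The groups were separate, and it fell by 1.09 (SE 0.13, limma adjusted p 0.0012).

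Nd4l, a small membrane subunit whose gene overlaps that of Nd4, had levels of 1.25, 1.14, 1.21 and 1.26 in controls 1 to 4, and of 0.27, -0.17, 0.37 and 0.21 in furan animals 1 to 4. It fell by 1.05 (SE 0.13, limma adjusted p 0.00122), with furan 2 again lowest. Nd4, another proton-pumping subunit, had levels of 6.27, 6.36, 6.28 and 6.42 in controls 1 to 4, and of 5.49, 5.14, 5.63 and 5.65 in furan animals 1 to 4. It fell by 0.85 (SE 0.13, limma adjusted p 0.00273), and all furan arrays lay below the controls.

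Nd2, the third of the pumping subunits, had levels of 1.51, 1.48, 1.39 and 1.64 in controls 1 to 4, and of 0.69, 0.38, 1.15 and 0.94 in furan animals 1 to 4. It fell by 0.72 (SE 0.17, limma adjusted p 0.0129), and its groups did not overlap, although without both control 2 and furan 1 the adjusted p was 0.0548. Nd1, which forms the quinone site together with the matrix arm, had levels of 7.09, 6.77, 6.80 and 6.96 in controls 1 to 4, and of 6.11, 6.43, 6.53 and 6.73 in furan animals 1 to 4. Furan 4 lay just under control 2, and the fall of 0.46 had the largest adjusted p of the 6, 0.0459 (limma). This call for Nd1 was lost without any single array other than furan 4, with adjusted p from 0.0617 without control 2 to 0.105 without control 1, and its change was -0.19 (adjusted p 0.145) after quantile normalization. The adjusted p of Nd1 in limma was 0.0955 with array-median scaling and 0.0935 with no filter on dim probes.

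The order of the furan animals seen in the nuclear subunits, with furan 1 lowest and furan 4 highest, held for 1 of these 6 genes. Furan 2 was lowest for 5 of the 6 mitochondrial-DNA-encoded genes and furan 1 for the other. Furan 2 was the lowest furan array for 26.3% of all features and for 23.3% of those within the 6 genes' range of level. The furan medians of the 6 genes were -0.86, -1.29, -0.78 and -0.81. The 5 probes for other mitochondrial-DNA-encoded genes, cytochrome c oxidase subunits I and II, cytochrome b and ATP synthase subunits 6 and 8, were also all lower, with a median of -0.63 and a range from -0.82 to -0.46, and adjusted p in limma from 0.00409 to 0.0265. Their furan medians were -0.67, -0.85, -0.43 and -0.44. The hepatocyte marker medians given above were likewise lower on all 4 furan arrays, and their part in the fall of the mitochondrial transcripts was not tested.

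Of 16 tested genes of mitochondrial biogenesis, including the machinery that transcribes and copies mitochondrial DNA, 3 were higher and 2 lower, with a median of 0.01. These shares, 18.8% and 12.5%, lay near the 17.3% and 16.9% of all features. Tefm, the mitochondrial transcription elongation factor, rose by 0.81 (SE 0.12, limma adjusted p 0.00199). Tfb2m, the mitochondrial transcription initiation factor, rose by 0.52 (adjusted p 0.0244 in limma) and its paralogue Tfb1m, an rRNA methyltransferase, by 0.35 (0.0237). Twnk, the mitochondrial DNA helicase, fell by 0.51 (limma adjusted p 0.0148). That call was lost when the mean of its probes was used and with replicate number as a block. Tfam, which packages mitochondrial DNA, was at 0.04 (-0.23 to 0.32), and the regulators Ppargc1a and Nrf1 were at -0.17 (-0.96 to 0.62) and -0.19 (-0.52 to 0.14). Nrf1 had levels of -2.11, -2.01, -2.05 and -1.98 in controls 1 to 4, and of -1.82, -2.41, -2.29 and -2.39 in furan animals 1 to 4. Only furan 1 lay above the controls, and the other furan arrays lay below them. Nrf1 was called lower in limma without furan 1 and with normexp background correction.

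The lists for the other respiratory complexes hold nuclear subunits together with some assembly and regulatory factors. Of 6 tested complex II genes 1 was lower, of 11 complex III genes 1 was lower, of 18 complex IV genes 3 were higher, and of 18 complex V genes 2 were higher, with medians of -0.14, 0.06, 0.10 and 0.05. Over all features 17.3% were called higher and 16.9% lower, and the complex IV share higher (16.7%) and the complex II share lower (16.7%) lay near these. Cox15, which makes haem A for complex IV, rose by 0.51 (SE 0.09, limma adjusted p 0.00465). Atp5if1, the inhibitor of ATP synthase, rose by 0.91 (SE 0.15, limma adjusted p 0.00328). Cox11, which delivers copper to complex IV, rose by 0.84 (adjusted p 0.0479), Cox7a2l, a supercomplex factor, by 0.32 (0.0306) and Atpaf1, an assembly factor of ATP synthase, by 0.40 (0.0287), all in limma. Lower were Sdhaf1, an assembly factor of complex II, by 0.50 (adjusted p 0.0187) and Uqcrq, a small subunit of complex III, by 1.08 (0.00738), also in limma.

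Of 16 tested genes of the tricarboxylic acid cycle and the pyruvate dehydrogenase complex, 5 were higher and 1 lower, with a median of 0.17. Both supply NADH to complex I. These shares were 31.25% and 6.25%, beside 17.3% higher and 16.9% lower over all features. Cs, citrate synthase, rose by 0.93 (SE 0.14, limma adjusted p 0.00265). Dlst, a subunit of the oxoglutarate dehydrogenase complex, rose by 0.78 (adjusted p 0.00199) and Idh3a, a subunit of the NAD-dependent isocitrate dehydrogenase, by 0.70 (0.00318), both in limma. Suclg2, the GTP-forming subunit of succinyl-CoA ligase, fell by 0.84 (limma adjusted p 0.00728). Of 11 tested genes that make iron-sulphur clusters, 1 was higher and 2 were lower: Bola3 rose by 0.52 (adjusted p 0.0308), while Nfs1, the cysteine desulphurase, fell by 0.54 (0.0213) and Isca2 by 0.51 (0.0278), in limma. The shares of this list were 9.1% higher and 18.2% lower, the latter near that of all features. Over all 106 tested genes of these lists, 14 were higher and 7 lower, 19.8% in all, beside 34.2% of all features. That count of 14 fell to 7 without control 2 and to 8 without control 3, control 4, furan 2 or furan 4, and the count of 7 fell to 4 without control 4 or furan 2. Among the genes named here, single arrays ended the calls of Atpaf1, Bola3, Cox11, Cox7a2l, Isca2, Nfs1, Sdhaf1, Tfb1m and Tfb2m. Leaving out control 1, 2, 3 or 4 ended 5, 7, 6 and 7 of these calls, and leaving out furan 1, 2, 3 or 4 ended 1, 8, 3 and 5, with adjusted p in limma from 0.0502 to 0.115. The calls of Cs, Dlst, Idh3a, Suclg2, Atp5if1, Cox15, Tefm, Twnk and Uqcrq were kept without any single array.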

How the data were processed

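Per the file headers and the submitters' processing notes, the authors read the scanned arrays with Agilent Feature Extraction 10.7. Each deposited scan file gives, per spot, a background-subtracted processed signal as a linear intensity. The authors' deposited value table holds the same intensity scaled to a 75th percentile near 1000 on each array, and was an alternative only.

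Spots marked as outliers were left out, spots of a probe were averaged as log2 values, and 170 of 30367 probes with no usable spot on some array were dropped. No spot was saturated. Genes were named through RefSeq's gene table (GRCr8), and probe positions are those of the array annotation (rn4). Of 20268 probes tested, the brightest stood for each gene. Groups were compared with limma 3.58.1 in R 4.3.3 (lmFit and eBayes without trend), which was checked on simulated data. The number of arrays limits the precision. All 8 value columns of the table were assigned to samples. Alternatives covered background, scaling, probe filter, probe choice, variance trend, slide, replicate number and left-out arrays.

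The members, lists and tests were chosen with earlier results of these data known. The genes named are every called Nduf gene, the nuclear core subunits, the assembly factors, Ndufa4, Ndufab1, the tested members of highest and lowest signal, the mt-Nd genes, and of each other list up to 3 called genes in the commoner direction and 1 in the other, with Ppargc1a, Nrf1, Tfam and Cs. Other members named were chosen after their values were seen. The value of 1 member is not reported here, although the counts include it.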

Additional observations from a re-analysis of the deposited data

Results flagged for a closer look

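Among 154 groups of 4 values checked (each named gene and each family median, in each treatment group), 5 had a single animal apart from the other 3 by Dixon's criterion, and chance gives about 1 in 20. Ndufa12 was lowest on control 2 at 2.46, with the other controls at 2.64 to 2.67. Ndufb2 was also lowest on control 2, at 4.23 against 4.61 to 4.65. Ndufaf1 was lowest on control 3 at -2.20, with the other controls at -2.00 to -1.97, and its furan arrays all lay above these. Idh3a was highest on control 2 at -2.98, against -3.24 to -3.20. The median of the 6 mitochondrial-DNA-encoded complex I genes, relative to their control means, was lowest on furan 2 at -1.29, against -0.86 to -0.78 on the other furan arrays.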

How the results depend on the processing

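Over the alternatives and the slides taken singly, the median change was 0.63 to 0.76 for the assembly factors and -1.07 to -0.80 for the mitochondrial-DNA-encoded genes, and -0.20 to 0.13 for the structural subunits, which took both signs. The assembly factors' count of 5 higher held in every alternative with a test, and the mitochondrial-DNA-encoded count of 6 lower became 4 to 6. With normexp background correction the median of all features moved by -0.15, to -0.18, and 31.8% of calls were higher in place of 50.6% (2799 higher, 6010 lower). There the assembly factor median was 0.63, 8 Nduf genes were higher and 3 lower, and of the structural subunits 3 were higher and 3 lower. Quantile normalization gave 9 and 3 Nduf genes, and 4 and 3 structural subunits. The lower count, in Nduf genes as in structural subunits, was 2 with a variance trend or with slide as a block and 0 with no filter on dim probes. The higher count of structural subunits was 2 with a variance trend, 1 with probes well above background on all 8 arrays and 2 without control 2 and furan 1. Leaving out 1 array in turn gave 5 to 8 higher and 0 to 4 lower Nduf genes, and 0 to 3 higher and 0 to 4 lower structural subunits. For the other genes of the pathway it gave 7 to 20 higher and 4 to 9 lower. Their higher count was 7 with array-median scaling or no filter, and their lower count 4 without control 2 and furan 1.

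Deviations from the group means correlated at -0.30, 0.12, 0.28 and 0.04 between same-numbered animals 1 to 4. Furan 2 and furan 3 correlated best with the control of the same number, whereas furan 1 and furan 4 did not. The highest correlation of any furan animal with any control was 0.53, between furan 1 and control 2. Furan 4 correlated best with control 1, at 0.33. With 4 animals a group, these correlations cannot settle whether the numbers pair the samples. With a replicate block, 5 Nduf genes were higher and 0 lower, 0 structural subunits were lower, 5 mitochondrial-DNA-encoded genes were lower (Nd1 at an adjusted p of 0.0982), 7 other pathway genes were higher, and over all features 2383 were higher and 2176 lower.

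With 4 arrays a group, the widest interval among the core subunits was that of Ndufs8, -0.50 to 0.91 on the log2 scale.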

Other observations

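The second Ndufab1 probe, which is dim (control mean -5.62, furan mean -6.55), gave a change of -0.93 with an adjusted p of 0.0211 in limma over all tested probes, whereas the brighter probe gave 0.15. Of the 11 Nduf genes with more than 1 probe, this was the pair that differed most, and it was picked after its values were seen. The 2 probes named Ndufs6 gave -0.10 and 0.18, neither called. RefSeq lists pseudogenes named after 19 of the 46 tested Nduf genes, and signal from such copies could not be separated from that of the gene.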
